A study of Mus musculus with 16 samples.

Results

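Copying a genome once per cell division takes a fixed sequence of protein machines, and the 44 genes described here encode parts of them. In G1, the origin recognition complex marks the sites where copying can begin, CDC6 and CDT1 load the ring-shaped MCM2-7 helicase onto them, and geminin blocks CDT1 once S phase has begun. The GINS complex, CDC45 and MCM10 then switch the helicase on, polymerases and primase copy the strands behind it, PCNA clamps them to the template, and a small set of enzymes keeps deoxynucleotides in supply. Most of these genes are transcribed shortly before S phase under E2F transcription factors, so in brain cultures, whose neurons no longer divide, their mRNA is known above all from cycling glia and progenitors.

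The genes were all rows of the count tables whose gene name is one of the 44, out of 54532 genes, and all 44 were among the 14783 genes that passed the filter on low counts. They were set in 10 roles: origin recognition (3 genes), licensing with its inhibitor (3), the MCM2-7 helicase (6), helicase activation (6), primase and polymerases (7), the sliding clamp and its loader (6), single-strand binding (3), Okazaki fragment joining (2), chromatin and methylation at the fork (4) and deoxynucleotide supply (4). The list does not hold every replication gene, and the others were counted in separate lists.

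Bulk RNA sequencing was performed on primary hippocampal cells of wild type (WT) mice and of Shank3∆11(−/−) (KO) mice, which lack the Shank3a, Shank3b and Shank3c isoforms of a postsynaptic scaffold protein. The controls and the KO line shared an inbred background, and each culture was pooled from hippocampi of several newborn pups of postnatal day 0 to 2 (1 to 2 in the labels). Li was added at day 9 in vitro (DIV 9), at 0.1 mmol/l for 5 days, with water as vehicle (Veh). RNA was taken at DIV 14, although the labels carry another number for each library, from DIV 14 to DIV 29. The 4 groups WTVeh, WTLi, KOVeh and KOLi held 4 libraries each. Libraries with the same number were taken as the same experiment. Replicates 1 to 3 were deposited in a first count table and replicate 4 in a second, which are called deposit batches 1 and 2 here. The question of these comparisons was how gene expression differs with the genotype and what Li does in each genotype.

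Libraries held 16123067 to 35188300 counts (median 22041966). The 44 genes together took 0.0521% to 0.0916% of the counts of a library. Shank3 checked the labels: it was at 169 to 267 CPM (counts scaled to 1000000 per library) in the 8 WT libraries and at 82 to 97.9 in the KO libraries of replicates 1, 3 and 4. The libraries labelled KO replicate 2 stood apart with 162 in KOVeh and 159 in KOLi, just below the lowest WT library. The number of genes called in each genotype comparison and the median of the 44 genes are therefore also given without replicate 2, and the other counts use all 16 libraries. Neuronal, astrocyte and progenitor markers were all detected, and 0 genes of any marker list were at 0 in every library.

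In WTVeh, levels per kb of gene length (CPM per kb, mean ± SD of 4 libraries) put Pcna first with 24.5 ± 4.27, then Rpa1, the large subunit of the single-strand binding protein, with 18.7 ± 1.98, and Gins4 with 13.5 ± 2.44. Orc6 followed with 9.80 ± 1.99. The ranges of mean ± SD of neighbours in this order met, except between Rpa1 and Gins4 and, further down, between Rrm1 and Pola2. The lowest were Cdc6 with 0.427 ± 0.144 and Orc1 with 0.380 ± 0.0762, which did not differ beyond their spread. The 6 helicase subunits, which act as a ring with 1 copy of each, ran from 2.70 ± 0.429 for Mcm2 to 6.86 ± 0.906 for Mcm4. In CPM without length, 22 of the 44 genes were under 10 and 11 were under 5 in WTVeh, so that the rarer members rest on few reads: Orc1 had 10 to 58 counts in a library.

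The promoters are shown first, because E2F factors are a known regulator of many of these genes. Of the 44 genes, 36 had a promoter in the RefSeq table of the GRCm38.p6 build (250 bases before to 50 after the start site), while Gins1, Gins2, Gins4, Gmnn, Mcm4, Pole, Prim2 and Rfc2 had none there. At least 1 of the E2F letter strings TTTCCCGC, TTTGGCGC, TTTGCCGC and TTTCGCGC, on either strand, was found in 15 of the 36 genes, or 41.7%. The same strings occurred in 4.40% of 11341 tested genes with a promoter, and in 2.26% of all 32851 promoters. Members and tested genes were counted by gene, with a match in any promoter, whereas the share of all promoters counts each promoter singly. The 15 genes were Cdc6, Cdt1, Dnmt1, Gins3, Lig1, Mcm3, Mcm5, Mcm6, Mcm7, Orc1, Pola1, Pold1, Pole2, Rfc3 and Uhrf1. The letters CCAAT, the core of the NF-Y site, were in 24 of the 36 genes (66.7%) against 42.8% of the tested genes and 37.4% of all promoters. The GC box letters GGGCGG were in 27 genes (75%) against 67.2% of the tested genes and 35.7% of all promoters. The letters TTTGAA and TTCGAA, core of the element of late cell cycle genes, were in 7 of 36 genes, or 19.4%, against 19.2% of all promoters and 16.1% of the tested genes.

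The windows below show the match in capitals with 10 bases on each side, read 5′ to 3′ along the gene. They cover 9 genes that recur in the results: the helicase subunits with a match, the loader Cdt1, the ligase Lig1, Uhrf1, Orc1 and Rfc3. Of these, Mcm6, Orc1 and Rfc3 have the letters but were not called in either genotype comparison.
Mcm3 (chr1:20820276-20820303, minus strand): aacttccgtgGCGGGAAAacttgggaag
Mcm5 (chr8:75109346-75109373, plus strand): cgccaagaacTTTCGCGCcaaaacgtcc
Mcm6 (chr1:128359798-128359825, minus strand): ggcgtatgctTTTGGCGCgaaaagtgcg
Mcm7 (chr5:138172031-138172058, minus strand): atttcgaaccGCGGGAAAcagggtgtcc
Cdt1 (chr8:122568037-122568064, plus strand): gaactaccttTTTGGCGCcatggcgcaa
Lig1 (chr7:13278842-13278869, plus strand): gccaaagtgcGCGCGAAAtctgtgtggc
Uhrf1 (chr17:56304118-56304145, plus strand): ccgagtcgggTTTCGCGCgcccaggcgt
Orc1 (chr4:108579417-108579444, plus strand): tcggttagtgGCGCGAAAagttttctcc
Rfc3 (chr5:151651201-151651228, minus strand): cgtcgcacgcTTTCGCGCtcgcgggaaa
In Mcm5 and Mcm6, a match on 1 strand overlaps another on the opposite strand. In Rfc3 a pair of matches followed each other at the start site, and the second is still in lower case at the end of its window. In Cdt1 the match began at base 33 counted from the start site.

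For comparison, the 250 bases before the start site of Mcm5, which fell in KO, are set beside those of 1 of the 2 promoters of Orc2, which did not pass the test in any comparison, with E2F and CCAAT letters in capitals.
Mcm5 (chr8:75109259-75109508, plus strand): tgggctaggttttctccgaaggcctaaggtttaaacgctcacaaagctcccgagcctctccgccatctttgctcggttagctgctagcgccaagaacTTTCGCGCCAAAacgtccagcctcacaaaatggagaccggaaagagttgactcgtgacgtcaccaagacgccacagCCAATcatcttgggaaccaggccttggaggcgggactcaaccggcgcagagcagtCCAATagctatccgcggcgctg
Orc2 (chr1:58505110-58505359, minus strand): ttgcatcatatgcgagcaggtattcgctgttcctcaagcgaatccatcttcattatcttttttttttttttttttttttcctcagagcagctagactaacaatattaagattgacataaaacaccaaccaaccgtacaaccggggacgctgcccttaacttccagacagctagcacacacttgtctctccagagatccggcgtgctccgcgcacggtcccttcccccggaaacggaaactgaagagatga
The Mcm5 stretch held 2 overlapping E2F matches and 2 of CCAAT, and this Orc2 stretch held 0 of either. The table holds a second promoter of Orc2, whose 250 bases before the start had 0 E2F matches and 1 of CCAAT. This pair is an example only. In the same stretch, the called genes Mcm7 and Uhrf1 held 1 E2F match in 1 promoter each, and Mcm3, Cdt1 and Lig1 held 0. Mcm6, which was not called, held 3. Over all members with a promoter, an E2F match was present in 7 of 13 genes called in KOVeh against WTVeh and in 8 of 23 that were not called, a difference that was not tested. A match is only a run of letters, and binding was not measured here.

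In KO cultures under Veh, replication genes were called lower and 0 were called higher. Of the 44 genes, 14 fell in KOVeh against WTVeh at an adjusted p under 0.01 and a fold above 1.2, edgeR's quasi-likelihood test, where 3.42% of all tested genes were called lower and 2.08% higher. They were the loader Cdt1, 5 of 6 helicase subunits (Mcm2, Mcm3, Mcm4, Mcm5 and Mcm7), the polymerase subunits Pola2 and Pold1, Rpa2, Lig1, Uhrf1, and Rrm1, Rrm2 and Tk1 of nucleotide supply. The median log2 fold change of the 44 genes was -0.42, against -0.0073 over all tested genes, and 40 of 44 were below 0 (background 51.2%) against 4 above (48.8%). In a bulk culture, fewer cycling cells and less of these RNAs per cell cannot be told apart.

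The per-library pattern in the heatmap of all 44 genes was broader than the calls. Lower values in KOVeh than in WTVeh were found in all 4 same-numbered pairs for 30 genes (17.2% of all tested genes), and 7 genes had every KOVeh library below every WTVeh library (background 2.86%): Mcm4, Mcm10, Pola2, Pold1, Rpa2, Rrm1 and Rrm2. The reverse, every KOVeh library higher, was seen for 0 genes (background 2.45%). An unadjusted p under 0.05 was reached by 31 genes (background 34.2%). The median difference over the 44 genes was -0.52, -0.33, -0.48 and -0.41 on the log2 scale in pairs 1 to 4. Pair 2, whose KO library stood apart in Shank3, thus had the smallest difference under Veh. Between KOLi and WTLi the medians were -0.393, -0.385, -0.392 and -0.509, with pair 2 level with pairs 1 and 3.

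**Figure D1:**
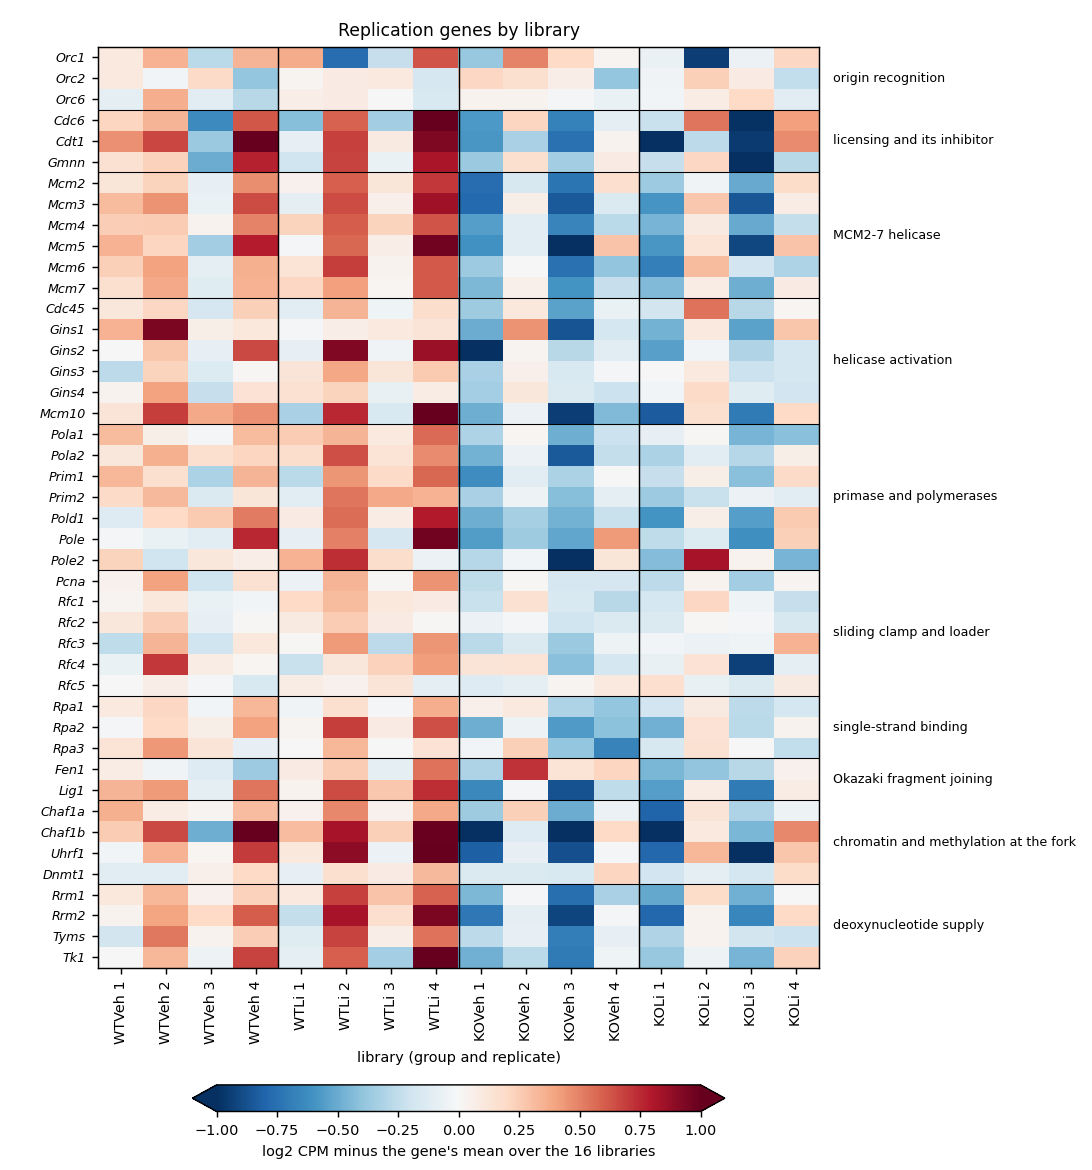
Log2 CPM of each of the 44 genes in each of the 16 libraries minus the mean of that gene, in rows by role and in columns by group and replicate, with the color scale ending at -1 and 1. Columns of KO replicates 1 and 3 are mostly blue and those of WT replicates 2 and 4 mostly red, replicates 2 and 4 are higher than 1 and 3 in each group, and the rows of Orc2 and Orc6 show no such split.

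These calls depended on how the spread was modelled. The direction did not: the median log2 fold change lay between -0.50 and -0.35 with any 1 of the 8 libraries left out. The 14 calls used all 16 libraries and the replicate number as a term, and 0 genes were called without that term or with the 2 groups fitted alone, as were 0 of all genes tested in those fits. Without the term, 19 of the 44 genes had an unadjusted p under 0.05, as did 2270 of 14783 tested genes. In limma-voom with a random effect for the culture, libraries of 1 genotype and number correlated by 0.507. There 5 genes were called (background 3.47%): Mcm3, Mcm4, Mcm7, Lig1 and Rrm1. Without replicate 2, 11 genes were called (background 11.1%) and the median was -0.51. An unadjusted p under 0.05 was then reached by 26 genes, and by 5969 of 14866 tested genes. Leaving out WTVeh replicate 1, KOVeh replicate 3 or KOVeh replicate 4 left 0 calls. Without KOVeh replicate 1, 4 were left, without WTVeh replicate 3 or 4, 7, and without KOVeh replicate 2, 8. In these fits, the share of all tested genes called ran from 0.316% (without WTVeh replicate 1) to 4.51% (without KOVeh replicate 2). By gene, no call was kept in more than 5 of the 8 fits with 1 library left out (Mcm4, Lig1, Rrm1 and Rrm2). Cdt1, Mcm5, Pold1, Rpa2 and Uhrf1 kept theirs in 1 fit and Tk1 in 0.

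No origin recognition gene was called. Orc2, a core subunit (gene body on chromosome 1, 58462771 to 58505109), was at 28.7, 26.4, 30.7 and 20.5 CPM in WTVeh replicates 1 to 4 and at 31, 30.1, 28.2 and 20.5 in KOVeh. The 2 groups overlapped almost entirely, and replicate 4 was the lowest of each. Its log2 fold change was 0.043 ± 0.0821 (SE, n = 4 per group, edgeR adjusted p = 0.749). Orc6 was at 0.02 ± 0.0931 and Orc1, the subunit that leaves the complex after G1, at -0.011 ± 0.33, where the low counts left a wide SE.

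Licensing was led by Cdt1, which brings the helicase to the origin. Cdt1 (on chromosome 8, 122568015 to 122573554) was at 5.09, 5.90, 2.83 and 7.49 CPM in WTVeh and at 2.44, 2.92, 2.15 and 3.77 in KOVeh. WTVeh replicate 3 lay inside the KOVeh range, and the other 3 WTVeh libraries lay above all 4 KOVeh libraries. The log2 fold change was -0.89 ± 0.18 with an adjusted p of 0.00753 (edgeR), which is 46.0% less. Cdc6, the other loader, was at -0.45 ± 0.22 and Gmnn, which encodes geminin, at -0.32 ± 0.22, and neither was called.

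All 6 subunits of the helicase were lower in all 4 pairs, with log2 fold changes from -0.78 for Mcm3 to -0.50 for Mcm7. Mcm4 (on chromosome 16, 15623897 to 15637400) was at 24.3, 24.4, 20.9 and 28.8 CPM in WTVeh and at 13.9, 19, 12.9 and 16.9 in KOVeh. The groups did not overlap, with the highest KOVeh library, replicate 2, still below the lowest WTVeh library. It had the smallest p of the 44 genes, with a log2 fold change of -0.66 ± 0.0891 and an adjusted p of 0.00174 (edgeR).

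Mcm3 (on chromosome 1, 20802968 to 20820312), whose promoter window is shown above, was at 14.9, 16.3, 11.4 and 18.9 CPM in WTVeh and at 6.94, 12.4, 6.66 and 10.8 in KOVeh. KOVeh replicate 2 exceeded the lowest WTVeh library, replicate 3, so the groups overlapped by 1 library on each side. The log2 fold change was -0.78 ± 0.13 (adjusted p = 0.00296, edgeR). Mcm6 lay just outside the threshold, with -0.60 ± 0.13 and an adjusted p of 0.0109. The order of the subunits by length-scaled level had Mcm4 first in all 4 groups, at 6.86 ± 0.906 CPM per kb in WTVeh and 4.37 ± 0.771 in KOVeh.

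Helicase activation held differences as large, at lower counts. Mcm10, which joins the helicase to polymerase alpha (on chromosome 2, 4989714 to 5012791), was at 2.77, 4.13, 3.31 and 3.50 CPM in WTVeh and at 1.78, 2.43, 1.27 and 1.84 in KOVeh. The groups did not overlap, and yet the adjusted p was 0.0162 at a log2 fold change of -0.93 ± 0.23 (edgeR), so that it was not called. The 4 GINS subunits act as 1 complex, and their values ran over a wide range: -0.64 ± 0.22 for Gins1, -0.58 ± 0.18 for Gins2, -0.068 ± 0.13 for Gins3 and -0.24 ± 0.0919 for Gins4. Cdc45, their partner in the active helicase, was at -0.32 ± 0.13. None of these 6 genes passed the threshold.

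Among polymerases, Pola2 and Pold1 were called. Pola2 encodes the regulatory subunit of polymerase alpha, which starts each new strand (on chromosome 19, 5940543 to 5964206), and was at 8.43, 9.98, 8.72 and 9.04 CPM in WTVeh and at 5.58, 7.46, 4.31 and 6.58 in KOVeh. The KOVeh libraries all lay below the lowest WTVeh library, at a log2 fold change of -0.61 ± 0.11 (adjusted p = 0.00474, edgeR). Pold1, the catalytic subunit of polymerase delta, was at -0.61 ± 0.13 (adjusted p = 0.00895). Pola1, Prim1, Prim2, Pole and Pole2, the other polymerase and primase subunits, ran from -0.42 to -0.35 and were not called.

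The clamp and its loader held no called gene. Pcna (on chromosome 2, 132249162 to 132253314) was at 55.8, 71.9, 47.2 and 60.3 CPM in WTVeh and at 45.5, 54.7, 48.4 and 48.3 in KOVeh, with overlap between the groups. Its log2 fold change was -0.24 ± 0.0812 and its adjusted p 0.0514 (edgeR). The 5 loader genes Rfc1 to Rfc5 lay between -0.27 (Rfc4) and 0.005 (Rfc5), and 0 of these 6 genes were called. PCNA and the loader also serve DNA repair. The SE of Rfc1, Rfc2 and Pcna was small, 0.0615 to 0.0812.

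Of the single-strand binding protein, Rpa2 alone passed the threshold. Rpa2 (on chromosome 4, 132768332 to 132778752) was at 10.5, 12.2, 11.1 and 14.1 CPM in WTVeh and at 7.54, 10.3, 7.15 and 7.96 in KOVeh. The groups did not overlap, although KOVeh replicate 2 came within 1 CPM of the lowest WTVeh library. The log2 fold change was -0.55 ± 0.11 (adjusted p = 0.00651, edgeR), against -0.28 ± 0.11 for Rpa1 and -0.36 ± 0.13 for Rpa3, which bind it in 1 trimer.

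At the lagging strand, the ligase was called lower and the flap nuclease was not called. Lig1, which seals Okazaki fragments (on chromosome 7, 13277283 to 13311433), was at 17.6, 18.6, 12.9 and 20.1 CPM in WTVeh and at 8.81, 13.7, 7.54 and 11.6 in KOVeh. Only KOVeh replicate 2 reached into the WTVeh range. Its log2 fold change was -0.76 ± 0.11 (adjusted p = 0.00281, edgeR). Fen1, which trims the fragments first, was at 0.34 ± 0.24 with an adjusted p of 0.356. In KOLi against WTLi, Fen1 was at -0.50 ± 0.25, lower in all 4 pairs, and was not called either. Fen1 had 14 to 57 counts in a library, and its exons overlap those of Tmem258 and Gm10143 on the other strand in the GENCODE vM21 annotation.

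Chromatin factors at the fork split by gene. Uhrf1 brings the maintenance methyltransferase to newly copied DNA (on chromosome 17, 56303321 to 56323486) and was at 10.3, 13.3, 10.6 and 17 CPM in WTVeh and at 5.90, 9.88, 5.63 and 10.4 in KOVeh. KOVeh replicate 4 reached just above WTVeh replicate 1, and the other KOVeh libraries lay below all of WTVeh. Uhrf1 fell by 0.72 ± 0.13 on the log2 scale (adjusted p = 0.00474, edgeR). Dnmt1, the methyltransferase itself, was at -0.07 ± 0.0572 with the smallest SE of the 44 genes. Of chromatin assembly factor 1, Chaf1b had the most negative value of the 44, -1.01 ± 0.24 at an adjusted p of 0.0140, and Chaf1a was at -0.38 ± 0.15.

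In nucleotide supply, 3 of the 4 genes were called lower. Rrm2, the subunit of ribonucleotide reductase that limits its activity to S phase (on chromosome 12, 24708241 to 24714146), was at 18.5, 23.8, 20.7 and 27.5 CPM in WTVeh and at 10.9, 16.8, 9.50 and 17.8 in KOVeh. No KOVeh library reached the lowest WTVeh library, and the log2 fold change was -0.75 ± 0.12 (adjusted p = 0.00291, edgeR). Its partner Rrm1 was at -0.57 ± 0.0888 and Tk1, the thymidine kinase of S phase, at -0.63 ± 0.13, both called. Tyms, thymidylate synthase, was at -0.43 ± 0.14 and was not.

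**Figure D2:**
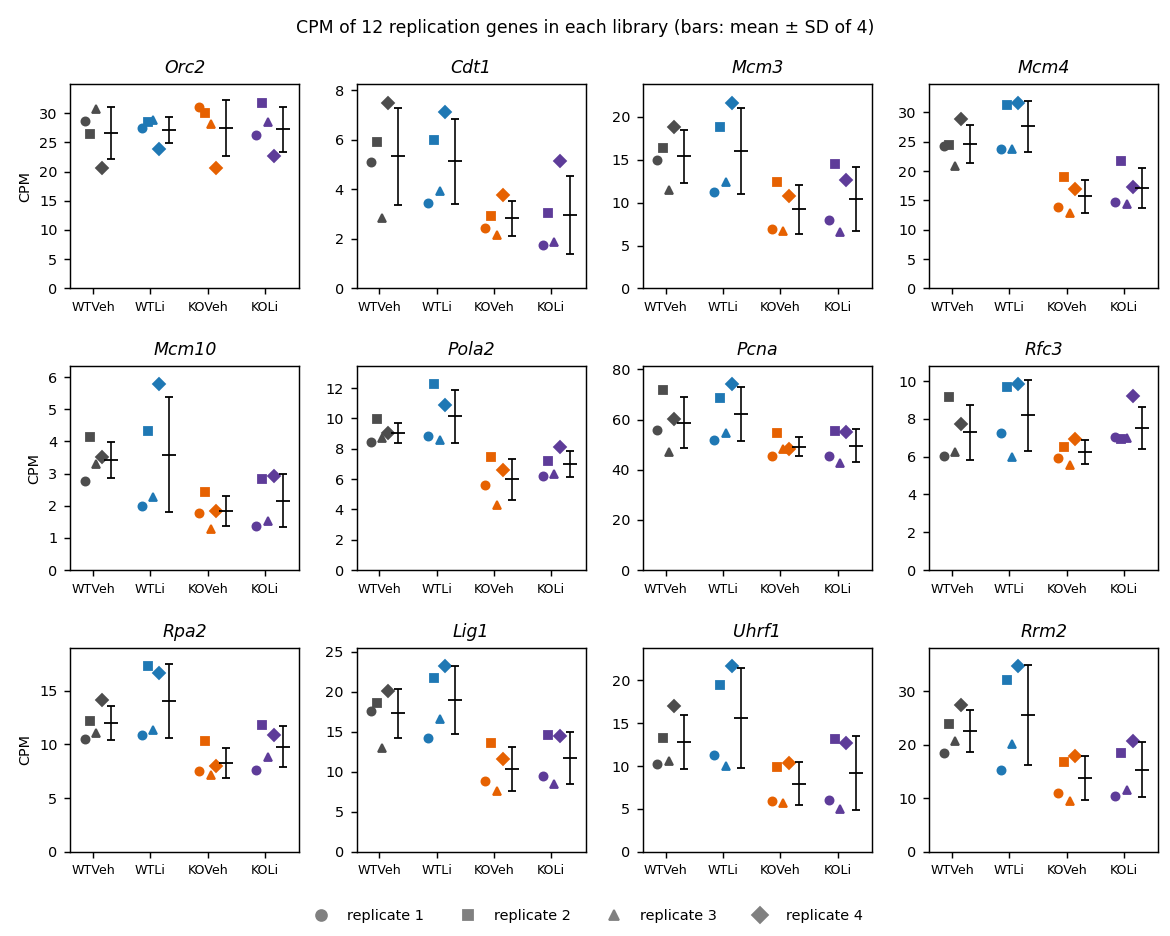
CPM of 12 of the genes in the 4 groups, with 1 symbol per replicate and the mean ± SD of 4 libraries as a black bar, on axes from 0. Orc2 is level across the groups, whereas Mcm4, Pola2, Rpa2 and Rrm2 have each KOVeh library below each WTVeh library.

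All 14 called genes were among the 33 with at least 5 CPM in WTVeh, where the median SE was 0.12, and 0 of the 11 rarer genes were called, where it was 0.22. Of the genes not called, 5 had log2 fold changes below -0.5 (Mcm6, Gins1, Gins2, Mcm10 and Chaf1b). The median log2 fold change was -0.43 in the 33 genes and -0.32 in the 11.

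The comparison of KOLi with WTLi asked the same of cultures under Li, with no library in common. Veh and Li libraries of 1 genotype and number may come from the same culture, which the labels do not state. Deviations of all tested genes from their group means correlated between such libraries by 0.590 to 0.859 in WT. In KO they correlated by 0.411 to 0.889. Again 14 of 44 genes were lower and 0 higher (background 3.60% lower and 2.76% higher), with a median of -0.49 against -0.0044 over all tested genes, with 42 of 44 below 0 (background 50.6%) and 2 above (49.4%). An unadjusted p under 0.05 was reached by 30 genes (background 36.6%). Of these 14 genes, 13 were the same as under Veh, or 92.9% of each list. Both lists came from 1 fit with shared replicate terms, so they are not independent. Tk1 was called under Veh, with -0.50 ± 0.13 and an adjusted p of 0.0222 under Li, and Pola1 under Li, with -0.56 ± 0.12 and 0.00941 (edgeR). The number of genes lower in all 4 pairs was 32 (background 20.6%), and 4 had every KOLi library below every WTLi library (background 2.50%): Mcm4, Gins3, Pola1 and Pola2. The reverse was seen for 0 genes (background 3.33%).

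Mcm4 was at 23.8, 31.2, 23.8 and 31.6 CPM in WTLi and at 14.8, 21.8, 14.4 and 17.3 in KOLi. The 2 groups did not overlap. The Mcm4 call was kept with each of the 8 libraries left out in turn (edgeR adjusted p from 0.00257 to 0.00828), which held for no other gene. Cdt1 was at 3.46, 5.98, 3.93 and 7.13 CPM in WTLi and at 1.76, 3.06, 1.85 and 5.15 in KOLi. KOLi replicate 4 lay above 2 WTLi libraries, while the log2 fold change of Cdt1 was -0.84 ± 0.18 (adjusted p = 0.00965, edgeR). The Cdt1 call was kept in 0 of those 8 fits, at edgeR adjusted p from 0.0142 to 0.0402. Pola1, Pola2, Pold1 and Rpa2 also kept theirs in 0.

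Rrm2 was at 15.3, 32.1, 20.2 and 34.6 CPM in WTLi and at 10.4, 18.5, 11.5 and 20.8 in KOLi. WTLi replicates 1 and 3 fell inside the KOLi range, unlike the vehicle libraries, where the groups were apart, and the log2 fold change was -0.73 ± 0.12 (adjusted p = 0.00278, edgeR). Lig1 was at 14.2, 21.8, 16.7 and 23.2 CPM in WTLi and at 9.43, 14.6, 8.43 and 14.5 in KOLi. Here KOLi replicates 2 and 4 reached past WTLi replicate 1, and the log2 fold change was -0.71 ± 0.11 (adjusted p = 0.00285, edgeR).

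Uhrf1 was at 11.3, 19.5, 10.02 and 21.6 CPM in WTLi and at 6.04, 13.2, 4.93 and 12.7 in KOLi. Replicates 2 and 4 of KOLi exceeded replicates 1 and 3 of WTLi, and each KO library was still below the WT library of its own number. The log2 fold change was -0.79 ± 0.13 (adjusted p = 0.00328, edgeR). Mcm3 was at 11.3, 18.9, 12.4 and 21.6 CPM in WTLi and at 7.93, 14.5, 6.57 and 12.6 in KOLi, where KOLi replicates 2 and 4 again exceeded WTLi replicates 1 and 3. Its log2 fold change was -0.64 ± 0.13 (adjusted p = 0.00580, edgeR).

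Orc2 stayed level, at 27.4, 28.5, 28.8 and 23.9 CPM in WTLi and at 26.3, 31.8, 28.4 and 22.6 in KOLi, and its log2 fold change of 0.0011 ± 0.0827 took the other sign under 8 other settings. Pcna was at 52, 68.8, 54.6 and 74 CPM in WTLi and at 45.3, 55.5, 42.6 and 55.2 in KOLi, lower in all 4 pairs, with a log2 fold change of -0.33 ± 0.0815 and an adjusted p of 0.0161 that was not called. Mcm10 was at 2.0, 4.32, 2.27 and 5.77 CPM in WTLi and at 1.38, 2.83, 1.52 and 2.91 in KOLi. WTLi replicate 4 was more than all others for Mcm10, and the log2 fold change was -0.71 ± 0.23 (adjusted p = 0.0437, edgeR).

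As under Veh, 0 genes were called without the replicate term or with WTLi and KOLi fitted alone. With a random effect for the culture, 5 were called (background 4.49%). Without replicate 2, 10 genes were called (background 11.8%) and the median was -0.45. Leaving out 1 library left between 1 and 9 calls. There was 1 without WTLi replicate 4 or KOLi replicate 1, 2 without WTLi replicate 3 and 3 without KOLi replicate 3 or 4. There were 7 without WTLi replicate 1 or 2, and 9 without KOLi replicate 2. The share of all tested genes called ran from 0.565% (without WTLi replicate 4) to 6.21% (without KOLi replicate 2).

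**Figure D3:**
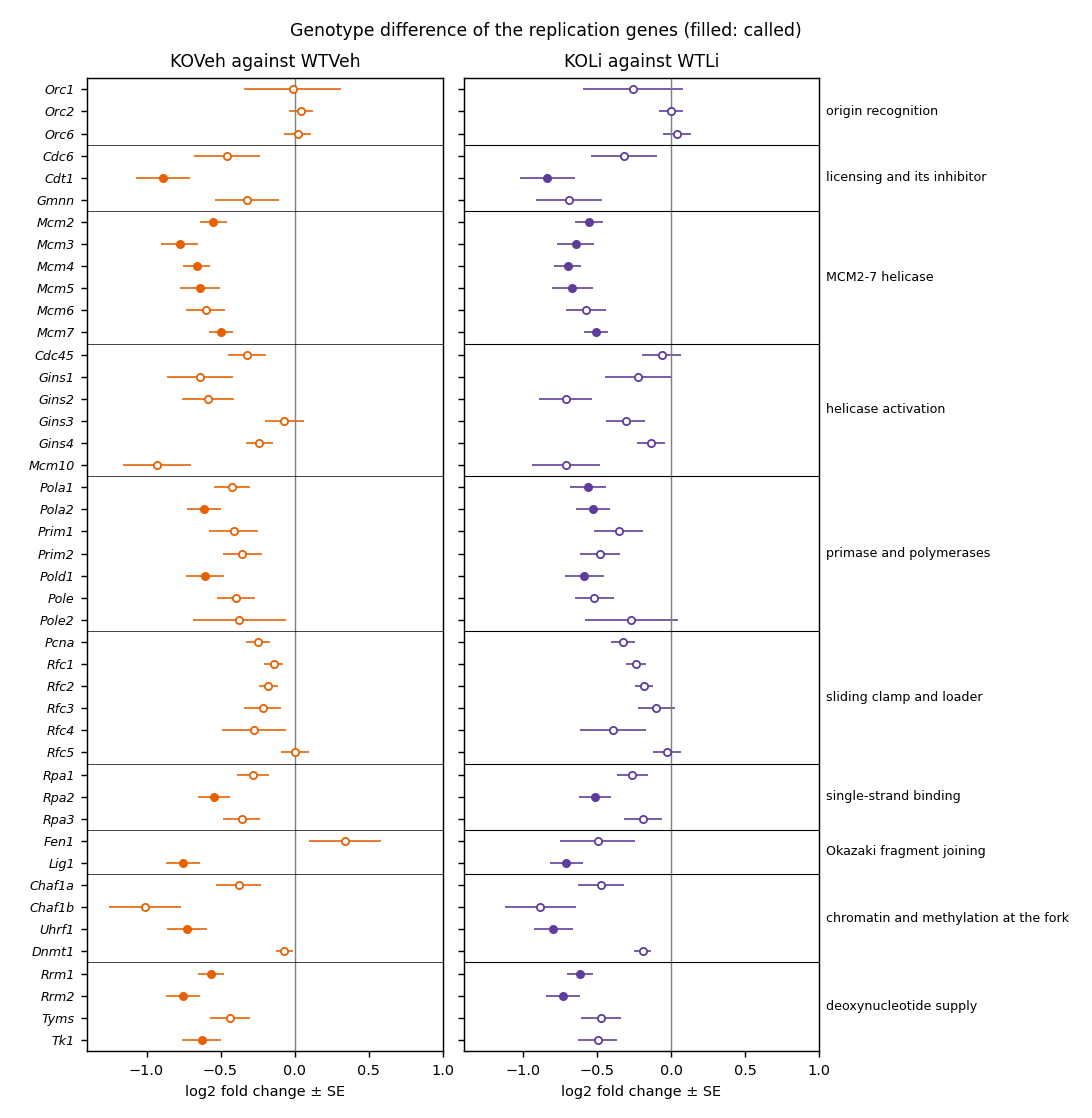
Log2 fold change ± SE of the 44 genes by role for KOVeh against WTVeh on the left and KOLi against WTLi on the right, with filled points for genes called lower. The 5 filled helicase points lie from -0.78 to -0.50 on the left, the origin recognition and Rfc5 points there lie near 0, and Fen1 lies above 0 on the left only.

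Li was then set against Veh within a genotype. In KO, 0 of 44 genes were called in either direction, as were 0% of all tested genes, and DESeq2 and limma-voom also called 0 genes in both Li comparisons and in the difference between them. The median log2 fold change of the 44 genes was 0.11, against 0.0022 over all tested genes, with 36 genes above 0 (background 51.0%). An unadjusted p under 0.05 was reached by 2 genes (background 1.52%), Rfc3 and Rpa2, and the lowest adjusted p was 0.99995 (edgeR). Higher values in KOLi than in KOVeh were found in all 4 pairs for 10 genes (background 7.70%): Mcm2, Mcm4, Mcm7, Cdc45, Gins4, Rfc1, Rfc3, Rpa2, Lig1 and Tk1. Fen1 alone was lower in all 4 pairs (background 8.44%).

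Rfc3, a subunit of the clamp loader (on chromosome 5, 151642756 to 151651242), was at 5.95, 6.51, 5.53 and 6.96 CPM in KOVeh and at 7.04, 6.92, 7.0 and 9.20 in KOLi. KOLi replicate 4 was higher than the other 3, which lay together. Rfc3 had a log2 fold change of 0.28 ± 0.13 against 0.16 ± 0.12 in WT, where the libraries were at 6.03, 9.15, 6.26 and 7.75 CPM under Veh and at 7.27, 9.69, 5.98 and 9.82 under Li.

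Rpa2 was at 7.61, 11.8, 8.81 and 10.9 CPM in KOLi, above KOVeh in each pair, with a log2 fold change of 0.24 ± 0.11 (SE of the fit over all 16 libraries). In WTLi it was at 10.8, 17.3, 11.3 and 16.7, also above WTVeh in each pair, with 0.21 ± 0.11. The test of the difference between these Li effects gave 0.035 ± 0.15. Pola2 was at 6.23, 7.21, 6.36 and 8.10 CPM in KOLi and at 8.83, 12.2, 8.58 and 10.9 in WTLi, with log2 fold changes against Veh of 0.24 ± 0.12 in KO and 0.15 ± 0.11 in WT.

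In WT, 0 of 44 genes were called (0% of all tested genes), with a median of 0.12 against -0.00044 and 36 genes above 0 (background 49.8%) against 8 below (50.2%). The 2 genes with an unadjusted p under 0.05 (background 1.47%) were Rrm1, with 0.24 ± 0.0878, and Rfc1, with 0.16 ± 0.0644. Values were higher under Li in all 4 pairs for 7 genes (background 8.81%), Mcm7, Gins3, Rfc1, Rpa2, Fen1, Dnmt1 and Tyms, and lower in all 4 for 0 (background 7.94%). Every WTLi library was below every WTVeh library for 0 genes (background 0.298%). Rfc1 was higher under Li in all 4 pairs of both genotypes, with 0.066 ± 0.0650 in KO, and Rrm1 was at 0.18 ± 0.0896 in KO. By pair, the median over the 44 genes was -0.065, 0.22, 0.11 and 0.23 in WT and 0.015, 0.079, 0.13 and 0.11 in KO, so replicate 1 of WT had the other sign. KOVeh and WTVeh each enter a genotype and a Li comparison, so that the values are given side by side only.

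The difference of the Li effects, KO minus WT, was called for 0 of 44 genes (0% of all tested genes), with a median of -0.0057 against 0.0046 over all tested genes and 21 of 44 above 0 (background 51.7%). Fen1 was the 1 gene with an unadjusted p under 0.05 (background 0.758%). It was at 1.31, 1.21, 1.13 and 0.947 CPM in WTVeh and at 1.32, 1.49, 1.16 and 1.85 in WTLi, higher under Li in each pair. In KO it was at 0.984, 2.11, 1.37 and 1.45 under Veh and at 0.881, 0.922, 1.01 and 1.28 under Li, lower in each pair. The difference was -0.84 ± 0.35 (adjusted p = 0.99989, edgeR), with the low counts and the overlapping exons named above.

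**Figure D4:**
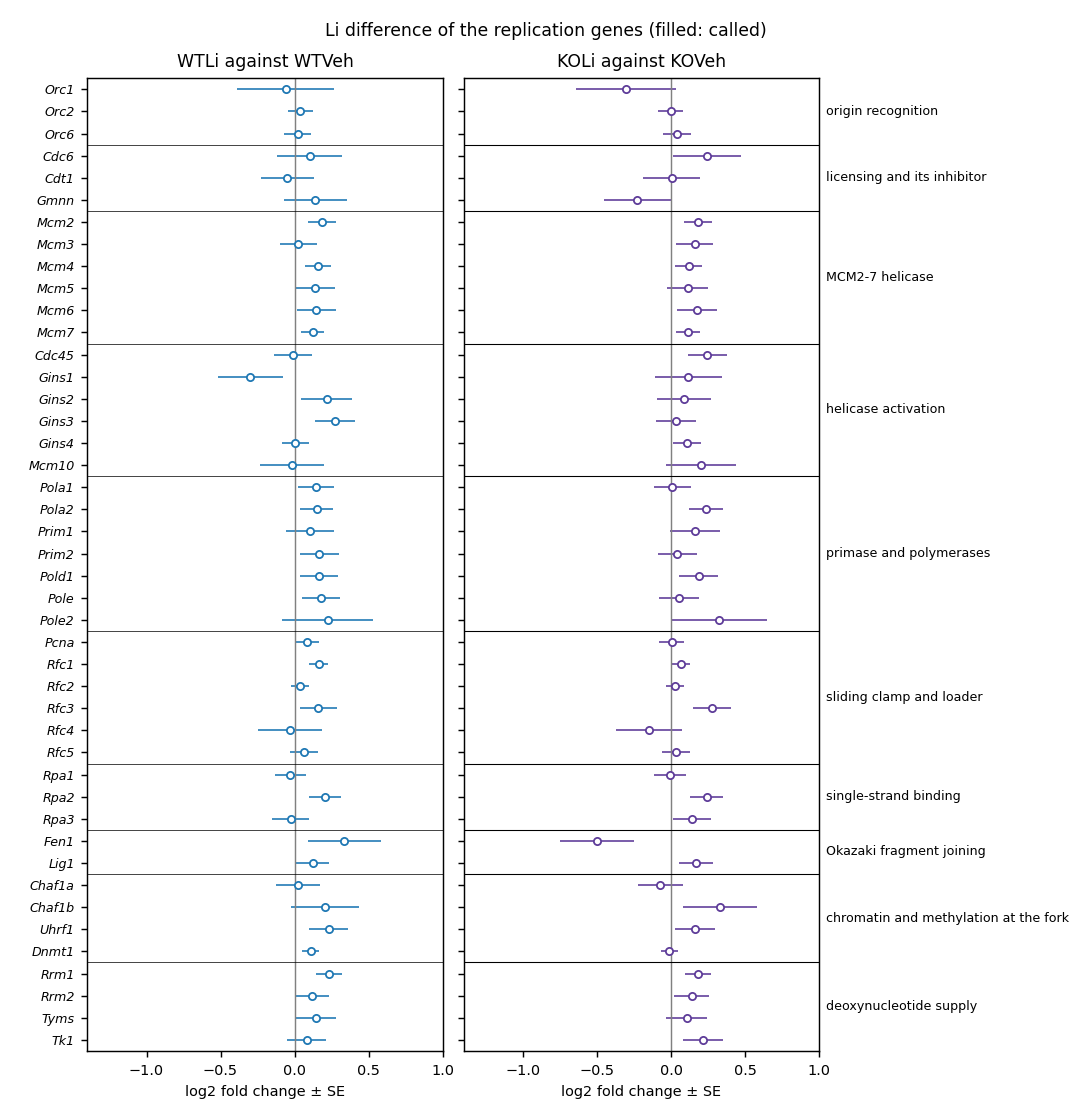
Log2 fold change ± SE of the 44 genes by role for WTLi against WTVeh on the left and KOLi against KOVeh on the right, with open points because 0 genes were called. In each panel 36 of 44 points lie to the right of 0, 40 of 44 lie within 2 SE of it, and Fen1 takes opposite sides.

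The genes also varied together between cultures. The median deviation of the 44 genes from their means over the 16 libraries was 0.33 and 0.32 in WTVeh replicates 2 and 4, and 0.11 and -0.074 in replicates 1 and 3, on the log2 scale. In KOVeh it was -0.014 and -0.10 in replicates 2 and 4, and -0.38 and -0.50 in 1 and 3. Replicates 2 and 4 were thus above replicates 1 and 3 in both genotypes. Under Li the same held, with 0.52 and 0.57 against 0.026 and 0.073 in WT and 0.082 and 0.038 against -0.34 and -0.33 in KO. Replicate 2 belonged to deposit batch 1 and replicate 4 to batch 2. In batch 1 alone the median log2 fold change was -0.41 for KOVeh against WTVeh, with 0 genes called among 3 replicates, and -0.40 for KOLi against WTLi, also with 0 called. Batch 2 held 1 replicate.

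The other genes of the pathway were counted in lists. Of 13 further genes of origin licensing and firing, 0 were called in KOVeh against WTVeh (median -0.13), with Dbf4, which activates the kinase of origin firing, at -0.55 ± 0.16, Orc4 at 0.15 ± 0.0651 and Ticrr at -0.51 ± 0.23. Of 26 further polymerase, fork and histone chaperone genes, 2 were lower and 0 higher (median -0.26): Timeless, a fork protection factor, with -0.92 ± 0.15, and Pole3, an accessory subunit of polymerase epsilon, with -0.27 ± 0.0566. Clspn, the partner of Timeless in checkpoint signalling, was at -0.93 ± 0.23 and was not called.

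Of 17 further genes of deoxynucleotide and thymidylate metabolism, 0 were called (median -0.036), with Mthfd1 at -0.40 ± 0.0952 and Samhd1, which degrades deoxynucleotides, at -0.52 ± 0.15. Of 21 genes that make or salvage purines and pyrimidines for RNA and DNA alike, 0 were called (median -0.13), with Ctps2 at -0.41 ± 0.10, Impdh2 at -0.19 ± 0.0505 and Hprt at 0.26 ± 0.0783. Among the nucleotide genes, Rrm1, Rrm2 and Tk1 were called lower, Tyms was not, and neither was any of these 38 others. Of all tested genes, 3.42% were called lower, and a difference between the lists was not tested.

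Of 16 genes of the E2F and RB family and their cell cycle partners, E2f8 alone was called lower in KOVeh, at -0.99 ± 0.19, with E2f7 at -1.09 ± 0.25 and Foxm1, a regulator of mitotic genes, at -0.71 ± 0.16. In KOLi against WTLi, 4 of the 16 were lower: E2f8, E2f7, Foxm1 and Mybl2. E2F7 and E2F8 are known as repressors of E2F targets. The 15 mitosis genes set beside the replication genes had a median of -0.89 in KOVeh against WTVeh, with 13 called lower, among them Cdc20, Top2a and Plk1, and of -0.88 in KOLi against WTLi. Their medians under Li were 0.28 in KO and 0.20 in WT, and the highest and lowest libraries were the same as for the replication genes, WTLi replicate 4 and KOVeh replicate 3. Whether the mitosis genes differed by more than the replication genes was not tested.

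Some markers of cell types were called between genotypes too, where 3.42% of all tested genes were called lower and 2.08% higher in KOVeh. The part of the cell types in the lower replication genes was not tested. Of 7 neuronal markers, 2 were higher in KOVeh and 0 lower, and their summed level ran from 3573 to 5011 CPM in WTVeh, 3231 to 4701 in WTLi, 4172 to 5837 in KOVeh and 3985 to 5623 in KOLi. Of 6 tested progenitor markers 1 was called lower, Nes, and 1 lay above 0, at 0.75 (median -0.50). Their sums were 552 to 1003, 652 to 1135, 416 to 797 and 466 to 833 CPM in the same order. Of 6 meningeal fibroblast markers 2 were called lower, Col1a1 and Col1a2, and 1 lay above 0, at 0.32 (median -0.42). Their sums were 925 to 1051, 877 to 1082, 651 to 776 and 600.1 to 867 CPM, so that WT and KO did not overlap in that sum. In KOLi against WTLi, 2 progenitor markers and 2 meningeal markers were above 0, up to 0.95 and 0.53.

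Of 7 astrocyte markers 1 was called higher in KOVeh (background 2.08%), the glutamate transporter Slc1a2, and 0 lower (background 3.42%, here and below). The other 6 were below 0, and the median of the 7 was -0.31. Their sums were 4660.3 to 7574, 5019 to 9037, 3784 to 7684 and 4204 to 8389 CPM. Of 5 tested markers of oligodendrocyte precursors 1 was called lower, Cspg4, and 5 were below 0, with sums of 348 to 460.04, 308 to 471, 284 to 587 and 299.96 to 768 CPM. Of 6 oligodendrocyte markers 1 was called lower, Cnp, and 6 were below 0 (median -0.95), with 116 to 474, 131 to 437, 74.6 to 149 and 73.3 to 145 CPM. None of the markers of microglia (7), ependymal (6), endothelial (4) or mural cells (3) that were tested was called, with medians of -0.58, -1.20, -0.60 and -0.53. Their sums in the same order of groups were 26.7 to 174, 29.6 to 122, 17.3 to 105 and 19.2 to 108 CPM for microglia and 106 to 265, 133 to 305, 49 to 253 and 47.3 to 237 CPM for ependymal cells. For endothelial cells they were 42.6 to 68, 52.8 to 75.4, 18 to 45.4 and 22.2 to 54.4 CPM, and for mural cells 77.1 to 205, 76.6 to 283, 24.5 to 119.6 and 41.6 to 184 CPM.

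Gene models overlap at some of these loci. In the GENCODE vM21 annotation, exons of 16 of the 44 genes overlapped exons of another gene, 3 of them on the same strand. Whether counting used strand could not be learned from the labels or methods. Of the called genes these were Mcm7 (Ap4m1, Cops6 and 2 microRNA genes within it), Lig1 (Zswim9) and Tk1 (Afmid), and reads from the shared parts cannot be told apart.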

How the data were processed

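Gene counts of 16 libraries, deposited by the authors as 2 tables of raw counts per gene, were used. Per the study's methods, the authors sequenced mRNA libraries paired-end, aligned reads with HISAT2 2.0.5 and counted them per gene with featureCounts 1.5.0-p3. The submitters' processing notes name the build GRCm38.p6. Whether counting used strand is not stated in the sources used here. Totals ranged from 16123067 to 35188300 counts. For the rarest genes, counting error adds to the spread between cultures. The tables gave different names to 14 genes, and a gene was taken by its identifier.

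Groups came from the labels. Of 33134 genes of the biotypes the study kept, 14783 passed filterByExpr (minimum count 15, proportion 0.25) and were scaled by TMM (factors 0.965 to 1.03). The edgeR 4.0.16 quasi-likelihood test (R 4.3.3) was fitted over all 16 libraries with group and replicate number as terms. The threshold was an adjusted p (Benjamini-Hochberg) under 0.01 with a fold over 1.2, and an SE is the log2 fold change over the root of F. CPM are counts per 1000000 after TMM, and CPM per kb divides them by the gene length in the tables. The study's methods speak of 4 experimental batches, and the replicate number was used for them, although no label says so. Deviations from group means correlated by 0.224 to 0.557 between same-numbered WTVeh and KOVeh libraries and by up to 0.53 between others. The lowest same-number value over all pairs of groups was -0.0386. Same-numbered Veh and Li libraries of 1 genotype correlated by 0.590 to 0.859 in WT and 0.411 to 0.889 in KO. Where Veh and Li libraries came from 1 culture, they are not independent, and p-values may then be too small.

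The 44 members, the pathway and marker lists and the tests were chosen with earlier results of these data known. Values in each library were given for the gene of each role with the smallest p in KOVeh against WTVeh, the 3 called genes of largest fold change there and the 3 genes of smallest p in KOLi against KOVeh. Of each pathway list, up to 3 genes of smallest p were named. The values of 1 such gene are not reported here. Others named for their values (Mcm6, Fen1, Rrm1, Rfc1, Chaf1b and the like) were chosen after their values were seen. Alternatives covered the replicate term, scaling, filters, biotypes, threshold, DESeq2 1.42.0, limma-voom (limma 3.58.1), and libraries left out. Promoters came from RefSeq (GRCm38.p6).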

Additional observations from a re-analysis of the deposited data

Results flagged for a closer look

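Among 48 sets of 4 libraries (12 genes in 4 groups), 1 held a library far from the others by Dixon's test, where chance gives about 1 in 20. Rfc3 in KOLi replicate 4 was at 9.20 CPM and the other KOLi libraries at 6.92, 6.996 and 7.04, so that the gap to the nearest took 0.945 of the range, above the critical value for 4 values.

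The Li effect of Fen1 was -0.84 on the log2 scale in KO minus WT, which did not pass the test over all genes (adjusted p = 0.99989, edgeR). It was lower under Li in 4 of 4 KO pairs and higher in 4 of 4 WT pairs, and it was the 1 gene past an unadjusted p of 0.05 among 44 examined.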

How the results depend on the processing

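In KOVeh against WTVeh, the 14 calls became 0 without the replicate term (no replicate block) or with the deposit batch in its place. They also became 0 with the groups alone or with batch 1 alone, and 5 with a random effect for the culture (background 3.47%). Leaving out 1 library gave 0 to 13. In KOLi against WTLi, the 14 calls became 0 in the first 4 of these fits and 5 with that random effect (background 4.49%). They became 9 without a filter on low counts (background 3.92%) and 9 with all biotypes (background 5.92%). At an adjusted p under 0.05 with no fold threshold there were 27 (background 21.8%), and leaving out 1 library gave 1 to 9. The alternatives gave 0 calls in both Li comparisons and in the difference between them. Without the replicate block 0 of all tested genes were called in any comparison, so every genotype call of the pathway and marker lists was lost as well. The member medians kept their sign in both genotype comparisons under all of these alternatives.

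Orc2 in KOLi against WTLi, 0.0011 in the report, was -0.040 without scaling factors, -0.0016 with limma-voom, -0.00072 with that random effect and -0.055 with replicates 1, 3 and 4 alone, and -0.041 to 0.062 with 1 library left out. Rfc3 there was 0.017 with replicates 1, 3 and 4 alone, and -0.16 to 0.019 with 1 library left out. Shank3 in KOVeh against WTVeh was -1.07 in the report. It lost its call at -1.02 without the replicate block, -1.02 with the deposit batch, -1.05 with the groups alone and -0.92 in batch 1 alone. It lay between -1.28 and -0.96 with 1 library left out. The cause was not tested, beyond the fewer libraries in fits of part of the samples. At this depth, 0 of the 11 genes under 5 CPM in WTVeh were called.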
